A study of Homo sapiens with 6 samples.

Results

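Sprouty, SPRED and dual-specificity phosphatase (DUSP) genes encode feedback inhibitors of kinase cascades, mainly the one from RAS to ERK. The group described here holds 10 of the 19775 genes measured on the array: SPRED1, SPRED2, SPRY1, SPRY2, SPRY4, DUSP1, DUSP4, DUSP5, DUSP6 and DUSP10. All probe sets annotated to them were taken, 22 of 54613. The genes were chosen by name with their differences between CTCF and empty vector arrays in view, so those differences are given as a description. The number of them past the threshold is printed beside that of all probe sets and is not read as a result. The cells were K562, an established chronic myeloid leukemia line driven by the BCR-ABL kinase, which signals through RAS and ERK. All of them carried a stably transfected pCDNA plasmid and received no further treatment. The plasmid was empty in KpCDNA (2 arrays) and held CTCF, the zinc finger protein of insulators and chromatin loops, in KCTCF-D11 (4 arrays). KCTCF-D11 is 1 named transfectant, so that CTCF and other properties of that transfectant cannot be told apart. In RNA from a whole culture, fewer cells expressing a gene and less RNA per cell cannot be told apart either.

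As background, receptor or BCR-ABL signalling loads RAS with GTP, and RAS then activates RAF, MEK and ERK in turn. ERK induces genes of its own inhibitors. Sprouty proteins act between the receptor and RAF, and SPRED proteins bring the RAS GTPase activator neurofibromin to the membrane. DUSPs remove phosphate from the kinases at the end of this and related cascades. DUSP6 acts on ERK in the cytoplasm and DUSP5 on ERK in the nucleus. DUSP1 and DUSP4 also act on the stress kinases JNK or p38, while DUSP10 acts mainly on JNK and p38.

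SPRED1 was the gene of this group with the highest difference between CTCF and empty vector cells, and DUSP10 and SPRY4 had the lowest. The groups overlapped at all but 2 of the 22 probe sets, where 13.2% of all probe sets did not overlap. In the whole-table fit 1 of the 22 passed, a SPRED1 probe set that was higher, and 0 passed as lower. Of all probe sets 1.86% passed, 0.538% as higher and 1.32% as lower. The log2 differences of the 22, CTCF minus empty vector, ran from -0.88 to 0.94, with 11 above 0 and 11 below. Their median was 0.02, against -0.02 over all probe sets. Since the choice of genes used this comparison, nothing is read from these counts. Differences are on the scale of log2(value + 16), which understates the change of dim probe sets. A probe set passed, rose or fell where the Benjamini-Hochberg adjusted p over all probe sets was under 0.05 in limma.

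The 6 arrays formed 2 array sets, each with both groups, and the fit holds the array set as a term. Empty vector array 1 and CTCF array 4 made up the smaller set, and the other 4 arrays the larger. Means of the thr spike-ins were 60.2 and 72.7 for the smaller set against 344 to 627 for the larger. For ACTB the 3' minus 5' control signal (log2) was 0.81 and 0.91 against 0.22 to 0.28. CTCF itself rose by 1.29 ± 0.16 (SE) on the log2 scale, from 457 and 634 to 1311, 1614, 1332 and 1332 (limma adjusted p = 0.0288, and 0.199 without the array set). The K562 identity was checked on erythroid markers, of which 7 of 7 measured lay above the median level of all probe sets. So did 4 of 4 measured lymphocyte, 3 of 4 megakaryocyte and 2 of 5 fibroblast markers, so this level does not single out erythroid cells. The erythroid markers summed to 15913 to 16225 with empty vector and 21612 to 24817 with CTCF, and 1, HBZ, rose. Most of these sums came from the globins HBE1 (means of 8002 and 10862) and HBZ (2260 and 7038). The log2 differences of TAL1 and KLF1 were 0.22 and 0.19, and those of GATA1, NFE2 and EPOR were -0.25, -0.20 and -0.09. Of 4 measured lymphocyte markers 1, CD3D, fell, and the sums were 1498 to 1547 with empty vector and 769 to 850 with CTCF. The 5 granulocyte and monocyte markers, 1 of them above the median level, summed to 117 to 183 and 49.7 to 93.4, with CD14 at 1.00 to 1.23. The 4 megakaryocyte markers summed to 206 to 306 and 123 to 241, and the 5 fibroblast markers to 361 to 6850 and 341 to 6326. At the brightest probe set none of these 3 lists had a passed marker, while another probe set passed for ITGA2B, COL1A1 and the erythroid TAL1. The part of these marker levels in the results was not tested.

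Promoters are shown for the genes with the highest and lowest group differences and for DUSP1, because the overexpressed protein binds DNA. Each runs 250 bases before to 50 bases after a gene start of RefSeq (GRCh38.p14), in the direction of the gene. SPRED1 is from chr15:38252586-38252885 on the plus strand. SPRY4 (chr5:142324198-142324497), DUSP1 (chr5:172771146-172771445) and the first of the listed DUSP10 windows (chr1:221742040-221742339) are on the minus strand. Capitals mark matches, on either strand, to the ETS core CCGGAA, the short cAMP response element TGACGT or the CTCF core letters AGGNGGC.
SPRED1: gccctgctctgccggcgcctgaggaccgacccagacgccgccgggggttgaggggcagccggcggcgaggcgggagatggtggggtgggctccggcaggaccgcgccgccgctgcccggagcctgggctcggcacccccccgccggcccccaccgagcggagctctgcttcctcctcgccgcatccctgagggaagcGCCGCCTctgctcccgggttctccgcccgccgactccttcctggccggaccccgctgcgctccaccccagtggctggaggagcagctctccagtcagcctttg
SPRY4: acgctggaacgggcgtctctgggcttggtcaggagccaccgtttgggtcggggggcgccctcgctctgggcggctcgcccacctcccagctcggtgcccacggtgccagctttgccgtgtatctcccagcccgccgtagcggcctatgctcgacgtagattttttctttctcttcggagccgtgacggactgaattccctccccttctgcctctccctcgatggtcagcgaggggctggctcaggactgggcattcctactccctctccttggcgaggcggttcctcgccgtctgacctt
DUSP1: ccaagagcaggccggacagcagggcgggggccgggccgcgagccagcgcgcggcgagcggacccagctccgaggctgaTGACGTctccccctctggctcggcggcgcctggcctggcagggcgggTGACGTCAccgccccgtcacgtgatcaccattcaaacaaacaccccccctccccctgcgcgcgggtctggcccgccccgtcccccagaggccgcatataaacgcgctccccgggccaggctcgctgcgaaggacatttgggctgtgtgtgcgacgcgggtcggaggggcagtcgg
DUSP10: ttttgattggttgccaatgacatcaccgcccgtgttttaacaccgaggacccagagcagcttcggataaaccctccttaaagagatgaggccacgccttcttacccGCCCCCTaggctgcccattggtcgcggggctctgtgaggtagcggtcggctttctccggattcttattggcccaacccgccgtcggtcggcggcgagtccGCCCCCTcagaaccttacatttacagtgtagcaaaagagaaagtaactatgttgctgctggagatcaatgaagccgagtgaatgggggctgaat
The SPRED1 window held 1 match to the CTCF letters, the DUSP10 window 2, and the SPRY4 window none of the 3 motifs. DUSP1 held 3 matches to the short element TGACGT, which are not 3 separate sites. A pair of them overlap, since the stretch TGACGTCA reads the same on both strands and was counted on each. Among the 13 windows found for 8 of the genes, 7 held the CTCF letters, 2 the ETS core and 2 the short cAMP response element. Over all 35116 windows of the same length the shares were 35.9%, 17.2% and 7.98%. These are matches of letters in a short window and show neither binding nor its absence.

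SPRED1 encodes a membrane adaptor that holds neurofibromin near RAS, and its 3 probe sets differed among themselves. At 226837_at the empty vector arrays read 98.8 and 236, and CTCF arrays 1 to 4 read 437, 442, 460 and 220. The low CTCF value was that of the smaller set, so the groups overlapped, while within each set every CTCF array was the higher. Its difference was 0.94 ± 0.11 on the log2 scale (SE; 1.92-fold), with 1.04 within the smaller set and 0.88 within the larger. At 244439_at the values were 12.4 and 47.1 for empty vector, and 87.6, 101, 99.97 and 19.0 for CTCF. Here the difference was 0.62 ± 0.16, with 0.30 and 0.83 within the sets. At 235074_at they were 56.4 and 149, and 119, 139, 126 and 53.4, a difference of -0.15 ± 0.12. So 2 of the 3 SPRED1 probe sets had a difference above 0 and 1 had one below. The 18 alternatives tried are not separate checks, since some leave the estimate unchanged and some repeat one another. Under them the difference at 226837_at lay between 0.78 and 1.42, and this probe set passed under 8 of the 18.

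SPRED2 is the close relative of SPRED1. At 212458_at, empty vector arrays read 318 and 573 and CTCF arrays 556, 582, 547 and 382. The 4 arrays of the larger set lay together at 547 to 582, whichever plasmid the cells carried, and the difference was 0.09 ± 0.12. At 212466_at the values were 79.1 and 57.6 for empty vector, and 31.7, 34.5, 35.5 and 96.7 for CTCF. CTCF cells were lower within the larger set (-0.56) and higher within the smaller (0.25). This difference between the sets, the interaction of group and array set in limma, was -0.81 ± 0.21, with an unadjusted p = 0.0194 and an adjusted p = 1. The remaining probe set, 214026_s_at, read 62.0 and 57.5 on the arrays of the smaller set and 1.00 to 12.7 on the others, with a group difference of -0.09 ± 0.23.

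SPRY4, an inhibitor of receptor signalling upstream of RAF, was lower in CTCF cells within both array sets. At 221489_s_at it read 169 and 288 with empty vector and 154, 167, 145 and 107 with CTCF. The groups did not overlap, but empty vector array 1 lay close to CTCF array 2. The difference was -0.73 ± 0.13, with -0.59 within the smaller set and -0.83 within the larger. Under the 18 alternatives it lay between -0.83 and -0.42.

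SPRY2, an inhibitor of the same family, read 35.5 and 119 with empty vector and 119, 152, 146 and 44.9 with CTCF (204011_at). Its values followed the array set, and the group difference was 0.21 ± 0.14. SPRY1 had 2 probe sets, both below the median level of all probe sets, with 21.2 to 42.8 over the 6 arrays at 230212_at and 16.4 to 33.2 at 212558_at. Their differences were 0.05 ± 0.14 and -0.11 ± 0.19, and the groups overlapped at both.

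**Figure D1:**
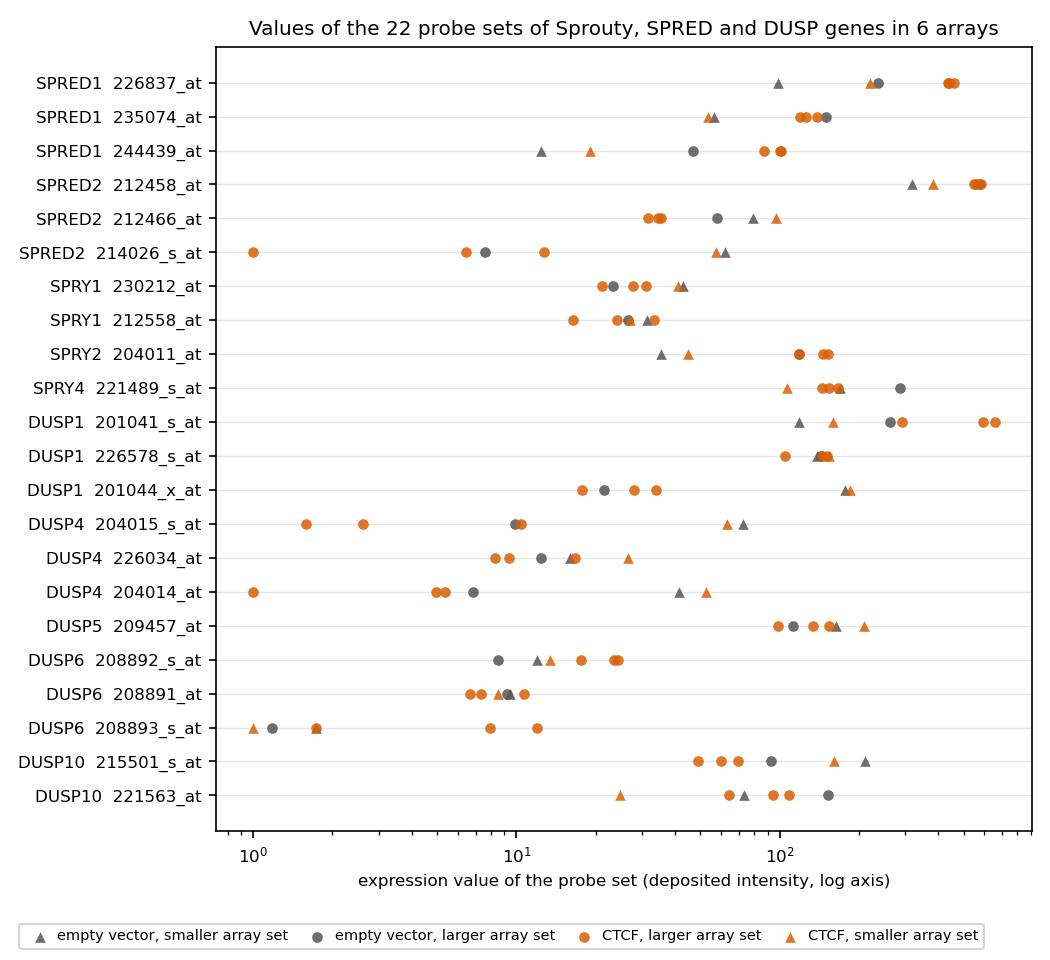
Deposited value (log axis) of each of the 22 probe sets in the 6 arrays, with grey for empty vector, orange for CTCF, triangles for the smaller and circles for the larger array set. For many probe sets the triangles stand apart from the circles whatever their colour, as for SPRY2, with 35.5 and 44.9 against 119 to 152.

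DUSP1, a nuclear phosphatase and immediate early gene, had 3 probe sets with different patterns. At 201041_s_at the empty vector arrays read 119 and 263, and CTCF arrays 1 to 4 read 292, 658, 592 and 159. CTCF arrays 2 and 3 stood above the other 4. The difference was 0.66 ± 0.35, the widest SE of the 22, with 0.38 within the smaller set. Within the larger set it was 0.14 for CTCF array 1 and 1.20 for the mean of CTCF arrays 2 and 3. These 2 arrays also had the highest thr spike-ins, with means of 627 and 580 against 363 for CTCF array 1 and 344 for empty vector array 2. The part of the spike-in difference in the DUSP1 values was not tested. At 226578_s_at the values were 139 and 143, and 152, 145, 105 and 154, a difference of -0.01 ± 0.18. At 201044_x_at they were 177 and 185 on the arrays of the smaller set and 17.7 to 33.8 on the others, with a group difference of 0.12 ± 0.19.

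DUSP4, a nuclear phosphatase of ERK and stress kinases, and DUSP6, the cytoplasmic ERK phosphatase, lay below the median level at each of their 6 probe sets. DUSP4 read 1.59 to 72.3 over the arrays at 204015_s_at, 1.00 to 52.3 at 204014_at and 8.27 to 26.5 at 226034_at, and its group differences were -0.27, -0.03 and 0.13. DUSP6 values all lay between 1.00 and 24.4. At 208892_s_at DUSP6 read 12.0 and 8.48 with empty vector and 23.5, 17.5, 24.4 and 13.4 with CTCF. These groups did not overlap, and the difference was 0.40 ± 0.17, with 0.07 within the smaller set and 0.62 within the larger. The other DUSP6 probe sets had differences of -0.06 ± 0.13 and 0.22 ± 0.23. Such levels are low for the array: 35.1% to 38.6% of its probe sets read below 16.

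DUSP5, which dephosphorylates nuclear ERK, read 163 and 113 with empty vector and 98.5, 133.4, 154 and 209 with CTCF (209457_at). The groups overlapped, and the difference was 0.22 ± 0.19.

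DUSP10, a phosphatase of JNK and p38, was lower in CTCF cells at both of its probe sets once arrays of the same set were compared. At 221563_at the empty vector arrays read 73.2 and 153, and the CTCF arrays 64.2, 108, 94.3 and 24.8. The difference was -0.88 ± 0.22, with -1.13 within the smaller set and -0.71 within the larger. At 215501_s_at the values were 212 and 93.0, and 49.0, 69.6, 59.7 and 161. The difference was -0.47 ± 0.15, with -0.36 and -0.54 within the sets. Over all arrays the groups overlapped at both, and the array sets stood apart in opposite directions. Under the 18 alternatives the difference at 221563_at lay between -1.13 and -0.30.

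**Figure D2:**
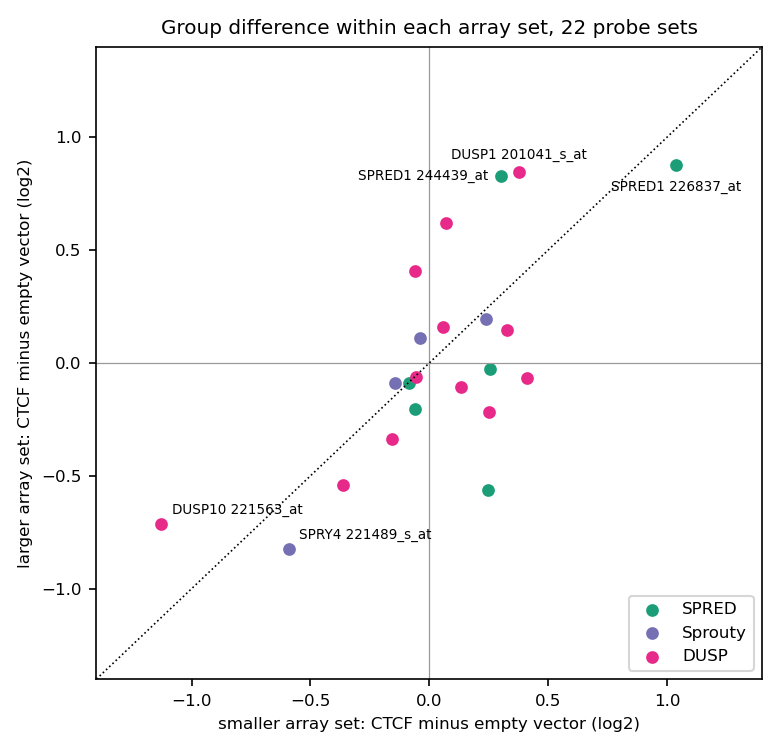
Log2 difference, CTCF minus empty vector, within the smaller array set (horizontal axis, 1 array of each group) and within the larger (vertical axis, 3 CTCF arrays and 1 empty vector array) for the 22 probe sets, with equal differences on the dotted line. SPRED1 226837_at lies at 1.04 and 0.88, SPRY4 at -0.59 and -0.83 and DUSP10 221563_at at -1.13 and -0.71, and the 5 labelled probe sets differ by at least 0.5 in the fit.

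The sign of the difference was the same within both sets for 15 of the 22 probe sets, and for 60.9% of all probe sets. A fitted difference of at least 0.5 in either direction was seen for 5 of the 22 and for 13.9% of all. These were probe sets of SPRED1 (226837_at and 244439_at), SPRY4, DUSP1 (201041_s_at) and DUSP10 (221563_at). The interaction of group and array set in limma passed for 0 of the 22 and 0 of all 54613 probe sets (0%), with 1 and 2039 at an unadjusted p under 0.05. The spread in the interaction fit comes only from the 3 CTCF arrays of the larger set. Its 0 calls therefore cannot show that the group difference was alike in both sets. Without the array set in the fit 0 of the 22 passed in limma, where 0.011% of all did. In that fit 1 of the 22 had an unadjusted limma p under 0.05, against 6.83% of all. None of the 22 is among the 768 probe sets that the authors' deposited table lists.

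Differences between the array sets were larger than those between the groups for 19 of the 22 probe sets, and for 71.4% of all. The array set contrast did not choose the genes. In it 15 of the 22 passed, 8 higher and 7 lower in the larger set, where 40.9% of all probe sets passed, 23.4% as higher and 17.5% as lower. Marker genes moved with this contrast too. COL3A1 read 6627 and 6114 on the arrays of the smaller set and 146 to 165 on the others, and EPOR 1748 and 1346 against 243 to 289. The array set contrast passed for 2 of 5 fibroblast, 2 of 7 erythroid and 1 of 4 megakaryocyte markers. It passed for 1 of 4 lymphocyte and 0 of 5 granulocyte and monocyte markers. Passed markers of 1 list went both ways. Unlike COL3A1 and EPOR, the fibroblast DCN and the erythroid NFE2 were higher in the larger set, by 0.52 and 0.69 (log2). The part of the markers in this contrast was not tested. All 3 SPRED1 probe sets were higher in the larger set, by 1.04 ± 0.11, 1.11 ± 0.12 and 1.47 ± 0.16, with limma adjusted p of 0.00118 to 0.00127. SPRY2 was higher by 1.36 ± 0.14 (limma adjusted p = 0.000976) and SPRY4 by 0.57 ± 0.13 (limma adjusted p = 0.0148). The SPRY4 call ended without either empty vector array and without CTCF array 4.

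Probe sets of 1 gene could lie on opposite sides in this contrast. DUSP1 had 1.33 ± 0.35 at 201041_s_at and -2.30 ± 0.19 at 201044_x_at, with limma adjusted p of 0.0271 and 0.000481. DUSP10 had 1.17 ± 0.22 at 221563_at and -1.17 ± 0.15 at 215501_s_at, with limma adjusted p of 0.00768 and 0.0022. SPRED2 had 0.65 ± 0.12 at 212458_at, -0.85 ± 0.20 at 212466_at and -1.73 ± 0.23 at 214026_s_at, with limma adjusted p of 0.00872, 0.0171 and 0.00213. Of the 7 genes with several probe sets, 6 had at least 1 that passed, and these 3 had passed differences of both signs. DUSP1 left this count with quantile normalization, with pseudocounts of 1 and 64 and without CTCF array 2 or 3, since 201041_s_at no longer passed. No gene was left in it without either empty vector array or without CTCF array 4. Over the array, 7961 genes with several probe sets had at least 1 that passed, and 20.3% of them had both signs. DUSP4 was lower in the larger set at 2 of its 3 probe sets, with -1.88 ± 0.20 and -1.61 ± 0.17. No probe set of DUSP5 or DUSP6 passed.

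**Figure D3:**
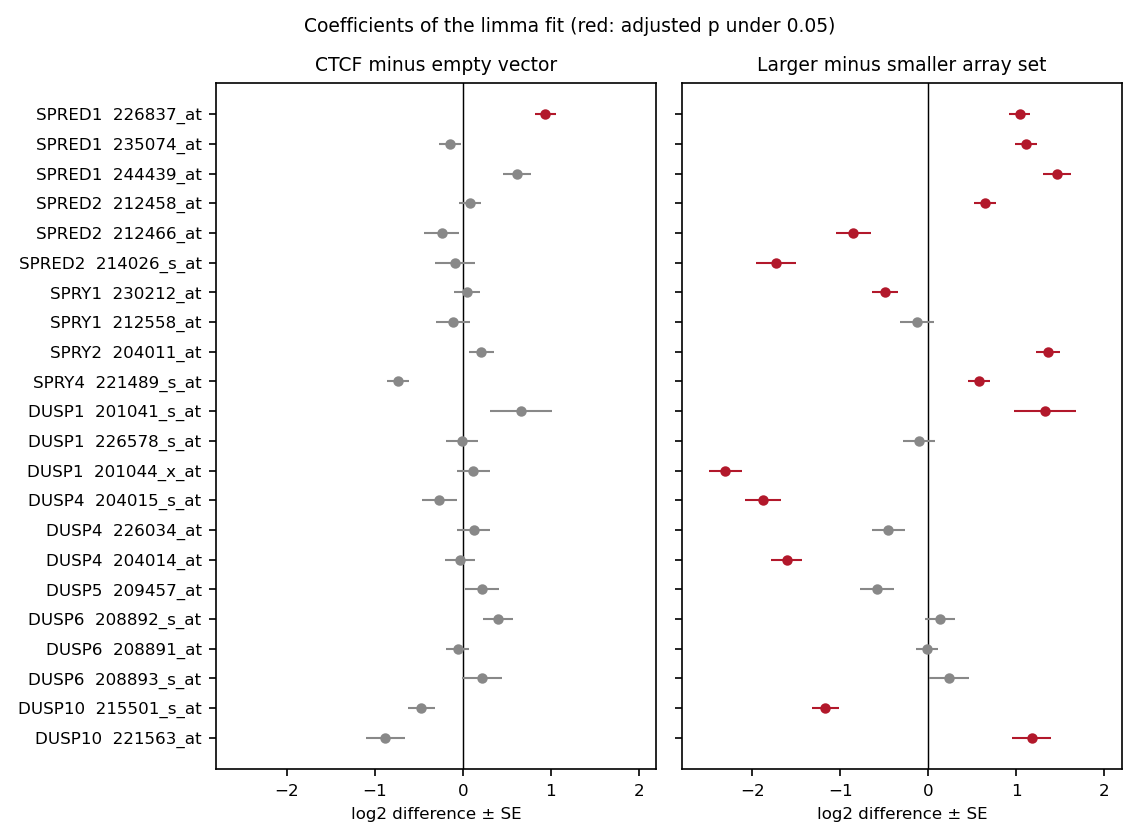
Log2 coefficients ± SE of the limma fit for the 22 probe sets, CTCF minus empty vector on the left and larger minus smaller array set on the right, with red for adjusted p under 0.05. On the left 1 probe set is red, SPRED1 at 0.94, and on the right 15 are, from -2.30 for DUSP1 201044_x_at to 1.47 for SPRED1 244439_at.

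Among other genes that ERK induces, 3 of 18 measured fell and 0 rose. At 1 probe set a gene, 2.57% of 19775 genes passed, 1.95% as lower and 0.622% as higher. PHLDA1, a pleckstrin homology domain protein, read 107 and 211 with empty vector and 38.9, 64.2, 62.0 and 22.8 with CTCF. It fell by 1.68 on the log2 scale (SE 0.19, limma adjusted p = 0.0257), and 1 of its 6 probe sets passed. IER3, an immediate early gene of stress and growth factor signalling, read 802 and 875 against 532, 551, 506 and 461. It fell by 0.74 on the log2 scale (SE 0.11, limma adjusted p = 0.0456). ETS1, a transcription factor that ERK also phosphorylates, read 131 and 249 against 3.90, 12.1, 2.86 and 12.0. It fell by 3.11 on the log2 scale (SE 0.31, limma adjusted p = 0.0236), with 1 of 3 probe sets passing. For all 3 genes the groups did not overlap. MYC, the brightest of the list, had a difference of -0.31 ± 0.16 (limma adjusted p = 0.394), and the list's median was -0.21 against -0.02 over all genes. The calls of PHLDA1, IER3 and ETS1 ended without the array set, with a pseudocount of 1 and when any array but CTCF array 1 was left out. That of IER3 also ended without CTCF array 1 (limma adjusted p = 0.0647), with median centring (0.0517) and with 3 array sets (0.0613). With the probe sets of each gene averaged, all 3 fell, with PHLDA1 at -0.71 and ETS1 at -1.72. IER3 has 1 probe set, so its difference is the same there.

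At their brightest probe sets, other relatives of the inhibitors did not pass. SPRED3 had 38.9 ± 6.46 (SD, n = 2) with empty vector and 38.5 ± 6.43 (SD, n = 4) with CTCF, a difference of -0.07 ± 0.13, and of the 2 other Sprouty and SPRED genes 0 passed. Of 14 other DUSP genes 0 passed, with differences of -0.69 to 0.82 and a median of 0.12. DUSP9, an ERK phosphatase, had the highest of these, with a limma adjusted p = 0.0502. It rose with quantile normalization (0.90 ± 0.13) and with the probe sets of each gene averaged (0.82 ± 0.12). DUSP9 has 1 probe set, so the average leaves its difference as it was, and only its SE and adjusted p move. In that average DUSP22, an atypical phosphatase, fell by 0.62 on the log2 scale. DUSP12, an atypical phosphatase, had 655 ± 33.0 (SD, n = 2) and 838 ± 78.1 (SD, n = 4), a difference of 0.31 ± 0.13 (limma adjusted p = 0.287).

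**Figure D4:**
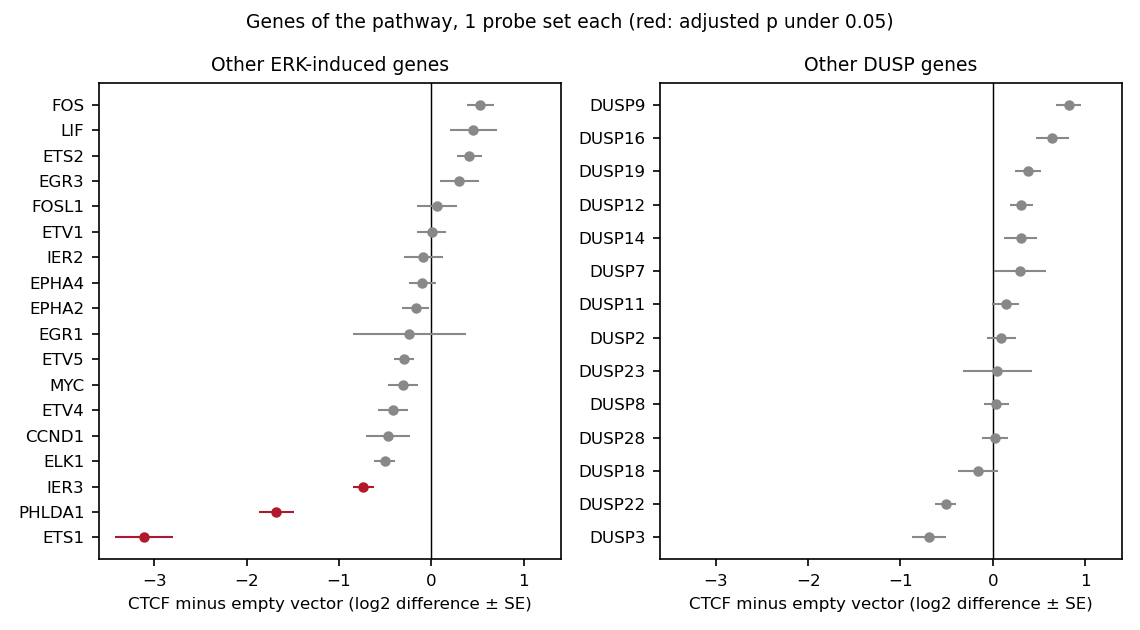
Log2 difference ± SE, CTCF minus empty vector, for 18 other ERK-induced genes on the left and 14 other DUSP genes on the right, 1 probe set a gene, with red for adjusted p under 0.05. ETS1 at -3.11, PHLDA1 at -1.68 and IER3 at -0.74 are red, and none of the DUSP genes is.

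Upstream in the cascade, 1 of 11 measured adaptors and exchange factors rose and 0 fell. GAB1, a docking protein that recruits the phosphatase SHP2, read 42.4 and 109 with empty vector and 213, 264, 257 and 91.5 with CTCF. The groups overlapped through the smaller set, as for SPRED1. GAB1 rose by 0.98 ± 0.14 on the log2 scale (limma adjusted p = 0.0405), with 0.88 and 1.05 within the sets, and 2 of its 7 probe sets passed. Its call ended without the array set, with a pseudocount of 1 and when any array but CTCF array 1 was left out. With its probe sets averaged GAB1 had 0.56 ± 0.13 and did not pass (limma adjusted p = 0.074). GAB2 had the largest absolute difference of this list, in the other direction, and did not pass. It read 1623 and 1639 with empty vector and 924, 509, 453 and 845 with CTCF, without overlap. Its difference was -1.23 ± 0.32 (limma adjusted p = 0.121), with -0.93 within the smaller set and -1.43 within the larger. The authors' table lists GAB2 at a fold change of -2.39. Of the 7 measured genes of the RAS, RAF, MEK and ERK list 0 passed, with MAP2K1, the kinase MEK1, at -0.06 ± 0.12. Of 5 RAS GTPase activators and other inhibitors 0 passed. PEBP1, a RAF-binding inhibitor, had 1108 ± 197 (SD, n = 2) and 1862 ± 246 (SD, n = 4), and its difference of 0.66 ± 0.13 had a limma adjusted p = 0.0669.

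Downstream, 0 of 8 measured JNK and p38 pathway kinases passed, with MAPK9, the kinase JNK2, at -0.27 ± 0.12. Of 7 effector kinases of ERK 0 passed at the brightest probe set, with MKNK2 at -0.27 ± 0.20 and a list median of -0.27. RPS6KA5, the kinase MSK1, had -1.05 at its brightest probe set (limma adjusted p = 0.0514). At another probe set it read 148 and 170 with empty vector and 82.6, 86.7, 85.7 and 56.2 with CTCF and fell by 1.00 on the log2 scale (limma adjusted p = 0.0303), and it also fell with its probe sets averaged. Over all 72 measured genes of the lists, the 10 inhibitors aside, 1 rose and 3 fell, a share of 5.56% against 2.57% of all genes. With the probe sets of each gene averaged 6 of the genes passed, among them DUSP9 and IER3 with 1 probe set each. The share of all genes in that average is not given here. No test of the lists was made.

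The genes whose values followed SPRED1 and SPRED2 most closely were found by Pearson correlation over the 6 arrays after array set means were removed. For SPRED1 (226837_at) they were NOL8, BCR and CDIN1, with correlations of 0.999, 0.999 and 0.999. For SPRED2 (212458_at) they were HELQ, INCENP and RNFT2, with correlations of 0.999, 0.994 and 0.993. With so few arrays high values are common: of the 12107 genes compared, 457 exceeded 0.95 for SPRED1 and 36 for SPRED2. The group difference was not removed, and SPRED1 226837_at was taken for that difference, so its ranking in part repeats the group comparison. NOL8, BCR and CDIN1 had group differences of 0.63, 0.39 and 0.75.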

How the data were processed

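Biotin-labelled RNA of K562 cells was hybridised to Human Genome U133 Plus 2.0 arrays of Affymetrix, per the labels' protocols. The authors deposited a linear intensity for each probe set on each array. How it was summarised and normalized was not given in the sources used here. Group means and signed fold changes of their table of selected probe sets are scores of the authors, per the file headers.

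The log2 of each deposited value plus 16 was fitted in limma 3.58.1 (R 4.3.3; lmFit, eBayes, 2-sided) with group and array set as terms, with Benjamini-Hochberg adjustment over 54613 probe sets. Array sets came from clustering the arrays on 42 bacterial and phage spike-in probe sets. The members, the lists and the array set term were chosen with earlier results of these data known. Names come from the platform annotation in GEO, for probe sets with 1 gene (41091), with symbols updated from RefSeq (41037 matched by Entrez ID). Pathway genes without such a probe set were not analysed here. Genes outside the group are given at their brightest probe set. The text names all members, CTCF, up to 3 passed genes of each list or else its brightest gene, and the 3 genes most like each of 2 members. The marker genes, MYC, GAB2, DUSP9, DUSP22 and RPS6KA5 were added after their values were seen. Array medians were 28.8 to 34.2, and the number of arrays limits precision. Whether replicates were separate cultures is not stated in the labels, so p-values cover the spread between these samples alone, which may be technical. The fit was tested on simulated data. Alternatives were other normalizations, filters, variance models, pseudocounts, array sets and leaving out each array.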

Additional observations from a re-analysis of the deposited data

Results flagged for a closer look

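In the group of 4 CTCF arrays, 1 array lay far from the other 3 by Dixon's criterion for 6 of the 22 probe sets, and in all 6 it was CTCF array 4, the CTCF array of the smaller array set. Chance gives such a result in about 1 in 20 groups of exchangeable arrays. These 4 arrays are not exchangeable, since they come from both array sets, and 40.9% of all probe sets passed the array set contrast. The share of all probe sets flagged in this way was not counted, so the 6 are not read as particular to these genes. CTCF array 4 was low for SPRED1, with 220 against 437 to 460 at 226837_at and 19.0 against 87.6 to 101 at 244439_at. It was high for SPRED2 (212466_at), with 96.7 against 31.7 to 35.5, and for DUSP1 (201044_x_at), with 185 against 17.7 to 33.8. It was also high for DUSP4, with 63.2 against 1.59 to 10.4 at 204015_s_at and 52.3 against 1.00 to 5.37 at 204014_at. Empty vector array 1, of the same array set, lay on the same side in each: 98.8, 12.4, 79.1, 177, 72.3 and 41.4.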

How the results depend on the processing

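As deposited and with the array set in the fit, 1017 probe sets and 1 of the 22 passed. Over all probe sets the count was 6 with no array set term, 2642 among probe sets above the median level, 2567 with a variance trend, 1913 with array weights, 2 and 2140 with pseudocounts of 1 and 64, 22 at a threshold of 0.01, and 0 in the larger array set alone, where CTCF has 3 arrays and empty vector 1. Of the 22, 0 passed with no array set term, with a pseudocount of 1, at the threshold of 0.01 and in the larger set alone, and 2 passed with quantile normalization, above the median level, with the variance trend, array weights, a pseudocount of 64 or 3 array sets. Higher probe sets were 28.9% of the calls as deposited and 42.3% of 1200 after quantile normalization. Replicate numbers 1 and 2 occur in both groups, and the deviations of same-numbered arrays had r = -0.68 and 0.70. The deviations of 2 empty vector arrays mirror each other, and CTCF arrays 1 and 2 share the array set of empty vector array 2. These values therefore cannot show whether the numbers mark a pairing. With a replicate block in place of the array set, 0 probe sets and 0 of the 22 passed.

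Leaving out 1 array gave 0 to 762 calls in all and 0 to 1 of the 22, with 1 only without CTCF array 1, and 0 to 3 of the pathway genes against 4 (0 with no array set term). For the array set difference it gave 8523 to 21946 calls against 22321, and 7 to 15 of the 22 against 15, lowest without CTCF array 4. The array set difference turned sign for 4 probe sets that had not passed. For DUSP6 208891_at it was 0.013 with quantile normalization and 0.070 with median centring, and ran from -0.059 to 0.0093 when 1 array was left out. Leaving out 1 array gave -0.20 to 0.038 for DUSP1 226578_s_at, -0.19 to 0.36 for DUSP6 208892_s_at and -0.045 to 0.42 for DUSP6 208893_s_at, each turned without CTCF array 4. The causes were not tested. The group difference kept its sign under every alternative for 10 of the 22, and the share over all probe sets was not counted. Some alternatives cannot turn a sign, and the level filter gives a value for 13 of the 22. The 3 array sets, the larger set alone, median centring of the array set difference, all interaction alternatives, and leaving out arrays for the pathway lists were chosen after seeing the data. The interaction had 0 calls in each.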
